A study of Mus musculus with 2 samples.

Results

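The cyclins, the cyclin-dependent kinases (CDKs) and the proteins that carry out mitosis were examined in the mouse uterus with and without repression of VEGF, the main growth factor of blood vessels. Members were taken by gene symbol: the A, B, D and E cyclins, the CDKs of the division cycle and their inhibitors, the CDC25 phosphatases with CDC6 and the listed CDC proteins, the Aurora and Polo-like kinases, the spindle checkpoint, the CENP proteins with Nuf2 and Ndc80, and a set of mitotic kinesins, spindle and cytokinesis proteins. The rule did not use any measured value, and it left out the CDK inhibitor Cdkn1a. It found 70 members among the 14678 genes of the table, and 57 of them carried a cell cycle or mitosis term there. Of the 74 symbols written out from the rule, 4 (Ccna1, Cenpc, Cenpu and Cenpx) had no row under those names.

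Both groups were double transgenic mice of the genotype VEGFtetO/tetO/beta-AKtg/wt. In these mice, tet operators stand at the Vegf gene, and the repressor tetR-Krab is made in the whole body under a beta-actin promoter, so repression was not limited to the uterus. Dox+ mice were kept on doxycycline chow, which holds the repressor off, and are named VEGF-normal in the labels. Dox- mice carried the same alleles, lost doxycycline at 3 to 4 weeks of age, and are named VEGF-repression. Uteri were taken at gestation day 2.5 from mice 9 to 10 weeks old, and total RNA of 3 uteri was pooled into 1 library per group. Tags were counted per gene, and a level is given as copies or as TPM, the copies per 1000000 clean tags, without a correction for transcript length.

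With 1 pooled library per group there is no replicate check and no test between the conditions. A gene is called higher or lower here when its share of clean tags differed at least 1.5-fold between the libraries and the exact Clopper-Pearson 95% interval of that ratio left out 1. Ratios are Dox- over Dox+ throughout. These intervals cover counting error only, not differences between animals, so a call compares both libraries and not the conditions. Copies over TPM put the libraries at 5985925 (Dox+) and 5844313 (Dox-) clean tags, of which the genes of the table hold 74.1% and 72.2%. The paper reports larger shares of clean tags mapped to a single gene, and the difference was not resolved. Vegfa, the repressed gene, had 247 copies in Dox+ and 125 in Dox-, a share 1.93-fold lower (interval 1.55 to 2.41).

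The markers of the uterine cell types were detected, and their summed levels differed between the libraries. The sum of the 9 epithelial markers was 1136 TPM without repression and 1356 TPM with it, that of the 8 stromal markers 9118 and 11121 TPM, and that of the 7 smooth muscle markers 6498 and 4483 TPM. The 6 endothelial markers added up to 165 and 109 TPM and the 7 leukocyte markers to 79.4 and 110 TPM, and no marker of any list was at 0. The sums hide differences within lists. Of the epithelial markers, Krt7, Muc1 and Epcam were called higher in Dox- and Cldn3 and Cldn4 lower. Of the endothelial markers, Cdh5, Emcn, Tek and Esam were called lower, while Pecam1 (ratio 1.07) and Kdr (1.74) were not called. The larger stromal sum came from Col1a1 and Col1a2, while Hand2, Hoxa10 and Vim were called lower and the median log2 ratio of the 8 stromal markers was -0.25. The part of this shift in the results on the cell cycle genes was not tested. In whole uterus, a change in the share of dividing cells and a change in RNA per dividing cell cannot be told apart.

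The division cycle is driven by CDKs, which act only when bound to a cyclin. D-type cyclins with Cdk4 and Cdk6 act early in G1, E-type cyclins with Cdk2 at entry into DNA synthesis, and cyclin A2 and the B-type cyclins with Cdk1 from S phase to mitosis. Aurora and Polo-like kinases then build the spindle and the kinetochores, the spindle checkpoint holds the anaphase-promoting complex (APC/C) back until the chromosomes are attached, and Cdc20 with the APC/C finally destroys cyclin B. Many transcripts of the G2 and mitotic proteins are made only late in the cycle. The uterus around implantation is known for waves of division that pass from the epithelium to the stroma under oestrogen and progesterone.

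Most members had a larger share of tags in the library of the VEGF-repressed uteri, and the ratios differed between roles. Of the 70 members, 40 were called higher in Dox-, 3 were called lower and 27 were neither, where 15.3% of all 14678 genes were called higher and 14.9% lower. The ratio was above 1 for 59 members, 84.3% of them, and for 51.3% of the 13727 genes of the table with a ratio. A ratio of at least 2 with the call was found for 27 members, and for 7.62% of all genes. Together the members had 10151 copies (1696 TPM) against 13280 copies (2272 TPM), a summed ratio of 1.34 (interval 1.31 to 1.37). By role the summed ratio was 3.22 for the Aurora and Polo-like kinases and 2.05 for the kinesin, spindle and cytokinesis genes, between 1.17 and 1.28 for the cyclins, the CDKs, the CDC and APC/C genes, the checkpoint and the kinetochore, and 1.001 for the CDK inhibitors. A gene with many tags sets some of these sums, such as Bub3 in the checkpoint, Cenpb in the kinetochore and Cdkn1c in the CDK inhibitors. The median ratio over members was 3.15 for the Aurora and Polo-like kinases, 2.56 for the checkpoint, 2.25 for the kinesin, spindle and cytokinesis genes, 1.66 for the kinetochore, and between 1.32 and 1.52 for the other 4 roles.

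A combined copy number of at least 200 over both libraries, the filter used in the study, was passed by 34 members and by 6547 genes. Of the 34, 17 were called higher, 2 were called lower and 15 were neither, beside 15.2% and 14.7% of the genes past the filter. Their median log2 ratio was 0.71, with a range from -1.08 to 2.21, and that of all genes past the filter was 0.03. Since 8 of the 34 had fewer than 100 copies in Dox+ and passed through their copies in Dox-, their ratios had to lie above 1. The other 26 members had at least 100 copies in each library, and 9 of those were called higher and 2 lower, beside 12.6% and 12.0% of the 5820 genes with at least 100 copies in each library. The 36 members under 200 copies had a median log2 ratio of 0.98, and 23 were called higher, 1 lower and 12 neither, beside 15.5% and 15.1% of the 8131 genes under 200 copies.

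**Figure D1:**
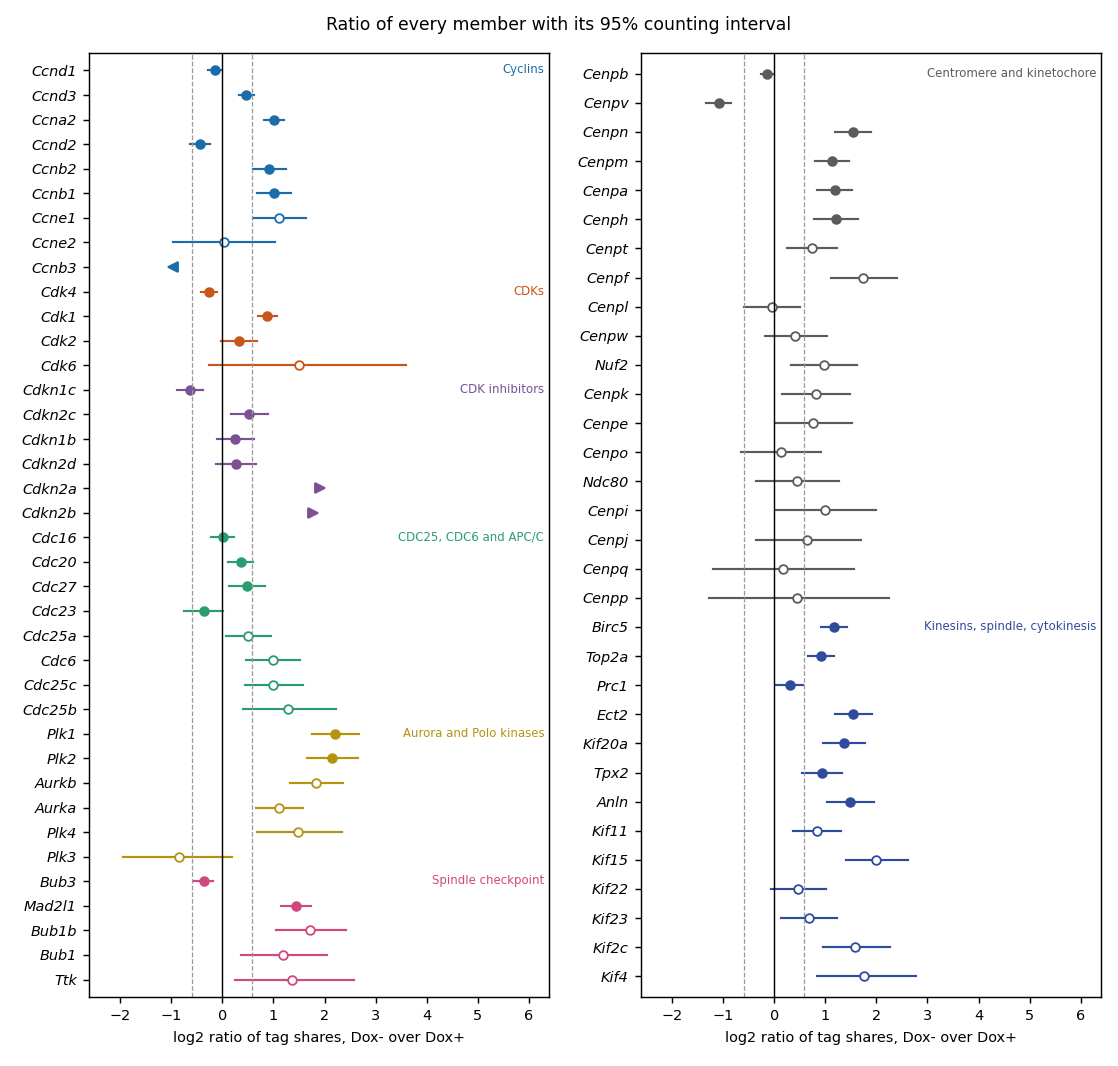
Log2 ratio of the tag shares (Dox- over Dox+) of all 70 members by role, with the 95% counting interval as a bar. Filled points have at least 200 combined copies, open points fewer, triangles are members without a tag in 1 library, set there to 3 copies, and dashed lines mark 1.5-fold. The points of 59 members lie right of 0, with Plk1 farthest right at 2.21 and Cenpv the leftmost member past the filter at -1.08.

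7 promoters are shown because late cycle genes are known for letters near their starts that early cycle genes often lack: the cell cycle genes homology region (CHR), read here as TTTGAA or TTCGAA on either strand, and the CCAAT box, read as CCAAT or ATTGG. The capitals below mark these letters. Each stretch is the RefSeq promoter (GRCm38.p6) from 90 bases before to 30 after the start, written 5′ to 3′ on the strand of the gene, and its position is its single exact match on NCBIM37 (mm9).
Cdk1 (chr10:68815631-68815750, minus strand): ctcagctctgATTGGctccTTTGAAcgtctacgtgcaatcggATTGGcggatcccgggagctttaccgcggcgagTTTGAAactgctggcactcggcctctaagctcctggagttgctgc
Ccnb2 (chr9:70269332-70269451, minus strand): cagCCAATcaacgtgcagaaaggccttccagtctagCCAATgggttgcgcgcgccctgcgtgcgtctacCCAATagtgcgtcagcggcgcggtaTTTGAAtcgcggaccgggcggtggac
Plk1 (chr7:129302859-129302978, plus strand): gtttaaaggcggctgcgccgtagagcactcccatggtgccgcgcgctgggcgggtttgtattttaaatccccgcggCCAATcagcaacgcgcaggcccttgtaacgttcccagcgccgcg
Cenpa (chr5:30969169-30969288, plus strand): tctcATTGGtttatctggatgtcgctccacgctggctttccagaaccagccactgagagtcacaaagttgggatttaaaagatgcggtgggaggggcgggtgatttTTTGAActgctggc
Prc1 (chr7:87439247-87439366, plus strand): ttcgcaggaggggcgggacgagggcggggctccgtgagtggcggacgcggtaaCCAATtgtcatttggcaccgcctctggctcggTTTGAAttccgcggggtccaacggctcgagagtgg
Ccnb1 (chr13:101556412-101556531, minus strand): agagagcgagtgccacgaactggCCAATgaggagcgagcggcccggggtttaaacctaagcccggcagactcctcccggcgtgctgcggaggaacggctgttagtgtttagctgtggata
Bub3 (chr7:138703794-138703913, plus strand): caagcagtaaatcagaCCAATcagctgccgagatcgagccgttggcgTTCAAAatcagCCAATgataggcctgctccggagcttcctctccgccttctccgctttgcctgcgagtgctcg

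Cdk1, Ccnb2, Cenpa and Prc1 each held TTTGAA and a CCAAT box in the printed stretch, and in Plk1 the TTTGAA began at +31, just past its end. Ccnb1 held a CCAAT box and no CHR letters. Bub3, a checkpoint gene with a ratio below 1, held TTCAAA, the CHR letters on the other strand, and CCAAT in the promoter shown, and neither in its other one. From 90 bases before to 50 after the start, 25 of the 60 members with a promoter in the RefSeq table (41.7%) held CHR letters, 33 (55.0%) a CCAAT box and 20 (33.3%) both. Of the 27025 RefSeq genes searched in the same way, 9.09% held CHR letters, 24.7% a CCAAT box and 2.14% both. Among the 5277 table genes past the copy filter with a promoter, these shares were 5.15%, 26.7% and 1.67%. Within the members past the filter, CHR letters were in 9 of the 14 called higher (64.3%) and in 3 of the 13 others (23.1%). A CCAAT box was in 9 (64.3%) and 7 (53.8%). The CHR holders called higher include Plk1, Cenpn, Ect2 and Anln, which passed the filter only through Dox-, so their ratios had to lie above 1. Without the filter, CHR letters were in 19 of 35 called higher (54.3%) and 6 of 25 others (24.0%). Whether the letters go with the ratio was not tested. Among all 775 table genes called higher past the filter with a promoter, 6.58% held CHR letters, near the share in all genes past it. A letter match is a description and not a bound site, and the members share their function by the rule.

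Among the cyclins, Ccna2, Ccnb1, Ccnb2 and Ccne1 were called higher in Dox-, Ccnb3 lower, and no D type was called. Ccna2, the cyclin of S phase and G2 (gene 12428, chr3:36463788-36471072 on NCBIM37), had 338 copies in Dox+ and 666 in Dox-, a ratio of 2.02 (1.77 to 2.31). The mitotic cyclins Ccnb1 and Ccnb2 were close to it. Ccnb1 had 119 and 234 copies with a ratio of 2.01 (1.61 to 2.53), and Ccnb2 had 131 and 242 with 1.89 (1.52 to 2.36). Their intervals overlap, so that no order among these cyclins can be read. Ccne1, the cyclin of entry into S phase, had 47 and 99 copies and a ratio of 2.16 (1.51 to 3.12), whereas its paralogue Ccne2 had 19 copies in each library. Ccnb3, a B-type cyclin known mainly from meiosis, had 6 copies in Dox+ against 0, at least 1.95-fold lower against a floor of 3 copies, and its counting interval begins at 1.15-fold lower.

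The D-type cyclins, which couple growth signals to the cycle, differed among themselves. Ccnd1 had 912 copies in Dox+ and 806 in Dox-, a ratio of 0.905 (0.822 to 0.996). Ccnd2 had 533 and 386 copies, a share 1.35-fold lower (1.18 to 1.54). Ccnd3 had 655 and 883 copies with a ratio of 1.38 (1.25 to 1.53). None of them reached 1.5-fold, while the intervals of Ccnd2 and Ccnd3 lay on opposite sides of 1. Of the D-type cyclin tags, Ccnd3 held 31.2% in Dox+ and 42.6% (exact interval 40.4% to 44.7%) in Dox-, and Ccnd2 held 25.4% and 18.6% (16.9% to 20.3%). Ccnd1 held 43.4% (41.3% to 45.6%) and 38.8% (36.7% to 41.0%). Of all cyclin tags, the D types held 76.1% in Dox+ and 62.2% in Dox-, the A type 12.2% and 19.97%, the B types 9.28% and 14.3%, and the E types 2.39% and 3.54%.

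The mitotic kinase Cdk1, the partner of cyclins A2 and B (gene 12534, chr10:68799383-68815686), had 355 copies in Dox+ and 639 in Dox-, a ratio of 1.84 (1.62 to 2.11). The G1 kinase Cdk4 lay on the other side, with 773 and 630 copies and a ratio of 0.835, and its interval (0.750 to 0.929) left out 1 but the difference stayed under 1.5-fold. Cdk2, the partner of cyclins E and A, had 127 and 155 copies with a ratio of 1.25 (0.982 to 1.59), an interval that holds 1. Cdk6, the other G1 kinase, had 4 and 11 copies. The tags of the 4 CDKs were split differently between the libraries. Cdk1 held 28.2% (25.7% to 30.8%) of them in Dox+ and 44.5% (41.9% to 47.1%) in Dox-, while Cdk4 held 61.4% and 43.9%. These shares describe tags of each gene between the libraries and do not rank the proteins.

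**Figure D2:**
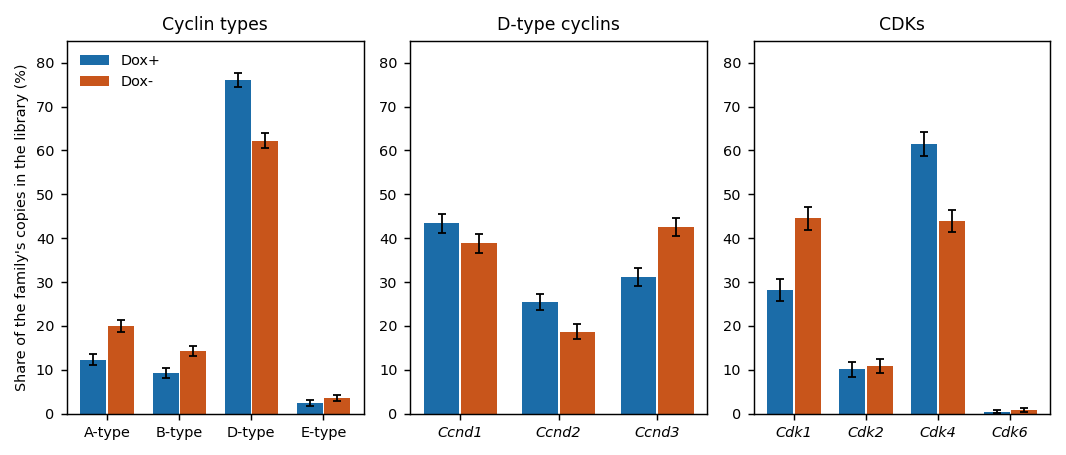
Share (%) of the copies of all cyclins, of the D-type cyclins and of the CDKs that each type or gene held in the Dox+ library (blue) and the Dox- library (orange), with exact 95% counting intervals. The A and B cyclins and Cdk1 held larger shares in Dox-, and Cdk4 held 61.4% in Dox+ and 43.9% in Dox-.

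The CDK inhibitors bind and block the kinases. The 6 inhibitors of the rule together had the same summed share in both libraries, with 664 copies in Dox+ and 649 in Dox- and a ratio of 1.001 (0.897 to 1.12). The inhibitor Cdkn1a (p21) is not in the rule. It had 38 and 69 copies and was called higher, with a ratio of 1.86 (1.23 to 2.84). Cdkn1c (p57, gene 12577, chr7:150644255-150646955), an imprinted inhibitor known from the differentiating uterine stroma, was called lower, with 326 and 206 copies and a share 1.55-fold lower (1.29 to 1.85). Cdkn1c had the most copies of the inhibitors, and each of the others had a ratio above 1. Cdkn2c (p18) had 112 and 158 copies with a ratio of 1.44 (1.13 to 1.86). Cdkn1b (p27) had 123 and 143 copies and Cdkn2d (p19) 103 and 121, with intervals that held 1. Cdkn2a and Cdkn2b, neighbours at the INK4 locus, had no tag in Dox+ and 11 and 10 copies in Dox-, at least 3.76-fold and 3.41-fold higher against the floor of 3 copies. Their counting intervals begin lower, at 2.57-fold and 2.30-fold.

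None of the 4 CDC and APC/C genes with at least 200 copies was called, and 3 of the 4 under 200 copies were called higher. Cdc16, an APC/C subunit, had 352 copies in Dox+ and 345 in Dox-, and Cdc27, another subunit, 113 and 154 with a ratio of 1.40 (1.09 to 1.80). Cdc23, also a subunit, had 137 and 104 copies with a ratio of 0.778 (0.597 to 1.01). The 3 subunits thus lay on both sides of 1, and 2 of their 3 intervals held 1. Cdc20, the activator that brings substrates to the APC/C in mitosis, had 262 and 328 copies and a ratio of 1.28 (1.09 to 1.51). The CDC25 phosphatases, which remove the inhibiting phosphates from CDKs, all had ratios above 1. Cdc25b had 16 and 38 copies with a ratio of 2.43 (1.32 to 4.67), Cdc25c had 41 and 80 with 1.998 (1.36 to 2.99), and Cdc25a had 74 and 103 with 1.43 (1.05 to 1.95) and was not called. Cdc6, which loads the replicative helicase, had 47 and 91 copies with a ratio of 1.98 (1.38 to 2.88).

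The Aurora and Polo-like kinases had the highest summed and median ratio of the 8 roles, with 236 summed copies in Dox+ and 742 in Dox-, a ratio of 3.22 (2.78 to 3.74). Plk1, the kinase of mitotic entry, spindle poles and cytokinesis (gene 18817, chr7:129302951-129313389), had 50 and 226 copies and a ratio of 4.63 (3.40 to 6.42). That is 8.35 TPM against 38.7 TPM, and 0.748% of the genes with at least 200 copies had a ratio as high or higher. Plk1 and Plk2 had fewer than 100 copies in Dox+ and passed the filter only through Dox-. Their ratios thus had to lie above 1, and the rank of Plk1 is a description alone. Plk2, a Polo-like kinase that is also an early response gene and acts in centriole duplication (gene 20620, chr13:111185252-111191052), had 42 and 181 copies with a ratio of 4.41 (3.14 to 6.33). Aurkb, the kinase of the chromosomal passenger complex, had 42 and 146 copies with 3.56 (2.51 to 5.15). Aurka, the kinase of the spindle poles, had 60 and 127 copies with 2.17 (1.58 to 3.00), and Plk4, the starter of centriole duplication, had 18 and 49 with 2.79 (1.60 to 5.09). Plk3, a stress-responsive kinase of the same family, had 24 and 13 copies, and its interval of the ratio (0.259 to 1.13) held 1.

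Of the spindle checkpoint genes, Bub3 was not called and the other 4 were called higher. Bub3, which brings Bub1 and BubR1 to the kinetochore, had 533 copies in Dox+ and 405 in Dox-, a share 1.28-fold lower with an interval that left out 1 and a size under 1.5-fold. Mad2l1, the inhibitor that holds Cdc20 (gene 56150, chr6:66485384-66491027), had 129 and 341 copies and a ratio of 2.71 (2.20 to 3.34). The checkpoint kinases and their partner had fewer tags and ratios of like size. Bub1b (BubR1) had 25 and 80 copies with 3.28 (2.07 to 5.36), Bub1 had 19 and 42 with 2.26 (1.29 to 4.12), and Ttk (Mps1) had 10 and 25 with 2.56 (1.19 to 5.97). The intervals of these 4 genes overlap.

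The centromere and kinetochore proteins held both directions. Cenpa, the histone that marks the centromere, had 108 copies in Dox+ and 239 in Dox- with a ratio of 2.27 (1.80 to 2.87). Cenpn, which reads the Cenpa nucleosome, had 95 and 269 copies with 2.90 (2.29 to 3.70), and the inner kinetochore proteins Cenpm and Cenph had 114 and 243 copies with 2.18 (1.74 to 2.75) and 68 and 153 copies with 2.30 (1.72 to 3.11). Cenpb, which binds a satellite sequence and is present through the cycle, had 1112 and 988 copies and a ratio of 0.910 (0.834 to 0.992).

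Cenpv (gene 73139, chr11:62338448-62352763) was the 1 centromere gene called lower. This protein, named for its place at centromeres and also found on microtubules, had 453 copies in Dox+ and 209 in Dox-, which is 75.7 TPM and 35.8 TPM, a share 2.12-fold lower (1.79 to 2.50). Cdkn1c was the other member past the filter that was called lower. Of the 13 kinetochore members under 200 copies, 6 were called higher and none lower. Cenpt, the one with the most tags, had 58 and 94 copies with a ratio of 1.66 (1.18 to 2.34), and Cenpf, a large protein of the outer kinetochore made in G2, had 28 and 91 with 3.33 (2.16 to 5.28). The others called higher were Nuf2, Cenpk, Cenpe and Cenpi, with ratios between 1.69 and 1.98. Ndc80, the partner of Nuf2 in the complex that grips microtubules, had 24 and 32 copies and an interval of 0.779 to 2.42, which holds both 1 and the ratio of Nuf2 (1.96).

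Of the 13 kinesins, spindle and cytokinesis proteins 11 were called higher, with 1144 summed copies in Dox+ and 2288 in Dox-, a ratio of 2.05 (1.91 to 2.20). Ect2, the exchange factor that activates RhoA at the cleavage site (gene 13605, chr3:26996144-27052800), had 91 and 259 copies and a ratio of 2.92 (2.29 to 3.74). Anln, the anillin scaffold of the contractile ring, had 57 and 156 copies with 2.80 (2.06 to 3.87). Kif20a, a kinesin of the central spindle, had 73 and 183 copies with 2.57 (1.95 to 3.42). These 3 act in cytokinesis, and their intervals overlap. Birc5 (survivin), of the chromosomal passenger complex with Aurkb, had 184 and 404 copies with 2.25 (1.88 to 2.69).

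Tpx2, which activates Aurka on the spindle, had 85 and 159 copies with a ratio of 1.92 (1.46 to 2.52), and Top2a, the topoisomerase that untangles sister chromatids, had 198 and 364 with 1.88 (1.58 to 2.25). Prc1, which bundles the microtubules of the central spindle, was the exception among the genes past the filter, with 222 and 267 copies and a ratio of 1.23 (1.03 to 1.48). Its promoter, printed above, held the same CHR letters as those of Cdk1 and Ccnb2. Of the 6 kinesins under 200 copies, 5 were called higher. Kif15, a kinesin that helps to keep the spindle bipolar, had 30 and 117 copies with 3.99 (2.66 to 6.18), Kif4, a chromosome-bound kinesin, 13 and 43 with 3.39 (1.79 to 6.87), and Kif2c, which takes microtubules apart at kinetochores, 28 and 82 with 3.00 (1.93 to 4.79). Kif11, the motor that pushes spindle poles apart, had 61 and 106 copies with a ratio of 1.78 (1.29 to 2.48), and Kif23, the partner of Racgap1 in centralspindlin, 48 and 75 with 1.60 (1.10 to 2.35). Kif22, which moves chromosomes along the spindle, had 54 and 73 copies and an interval that held 1.

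**Figure D3:**
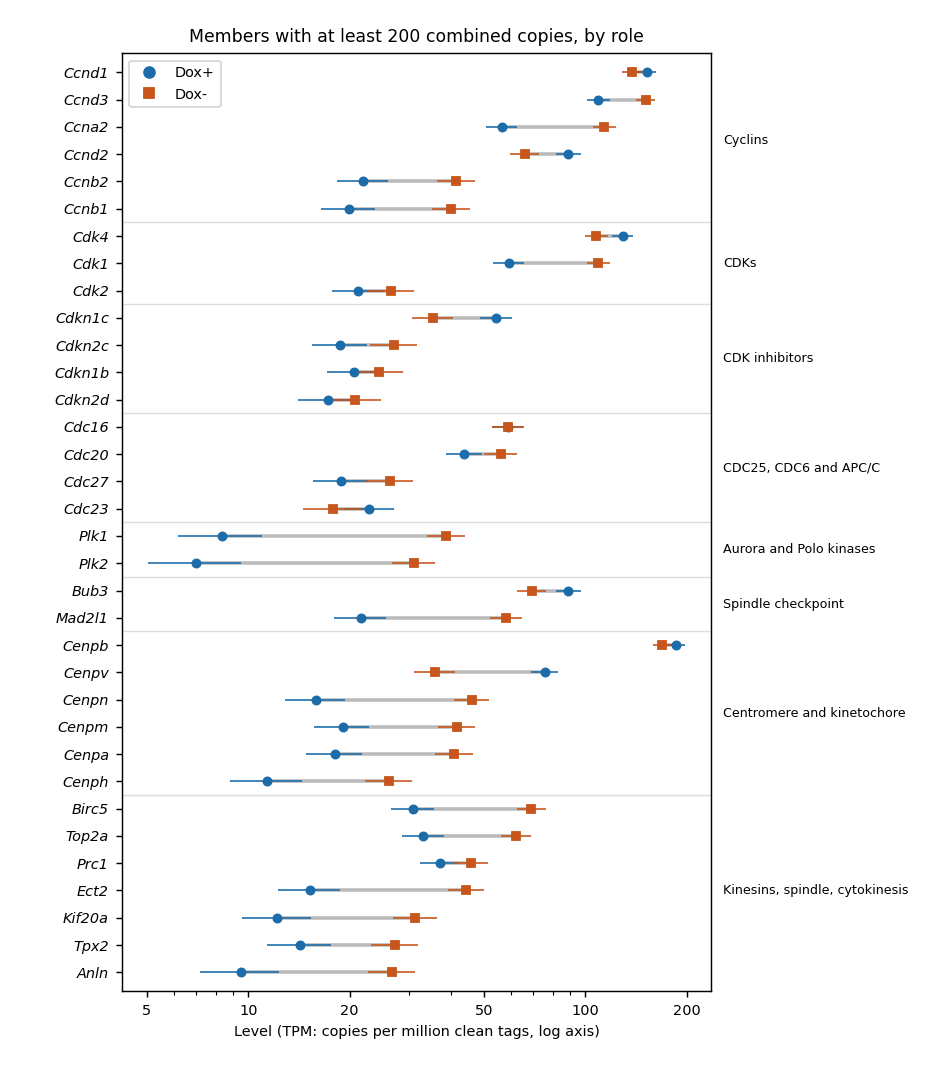
Level in TPM (log axis) of the 34 members with at least 200 combined copies in the Dox+ library (blue circles) and the Dox- library (orange squares), by role, with exact 95% Poisson intervals of the copies. Plk1 lies at 8.35 and 38.7 TPM and Cenpv at 75.7 and 35.8 TPM, and the points of Ccnd1, Cdc16 and Cenpb nearly meet.

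Further cell cycle genes were read from hand-written lists. Past the filter, 15.2% of all genes were called higher and 14.7% lower, and under it 15.5% and 15.1%. Genes with fewer than 100 copies in Dox+ passed it through Dox-, so their ratios had to lie above 1. Those named here are Mki67, Smc4, Rfc1, Anapc4, Cdk7 and Mycn. Wee1 and Rpa2 passed it through their copies in Dox+. Of the 12 further mitotic proteins with at least 200 copies, 7 (58.3%) were called higher and 1 (8.33%) lower, with a median log2 ratio of 0.65. Of the 27 under 200 copies, 17 were called higher and 1 lower. Mki67, the proliferation antigen Ki-67, had 79 copies in Dox+ and 224 in Dox- with a ratio of 2.90, and Racgap1, of centralspindlin, had 108 and 286 with 2.71. Cks2, a small subunit of CDK complexes, had 262 and 569 copies, and Pbk, a mitotic kinase, 180 and 286. Ube2s, the APC/C conjugating enzyme with the most tags of that list, had 1686 and 1264 copies, and Wee1, the kinase that inhibits Cdk1, was called lower with 180 and 65.

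Of 26 genes of DNA replication past the filter, 3 (11.5%) were called higher and 2 (7.69%) lower. Both shares were under those of all genes past it, and the median log2 ratio was 0.24. Of the 20 under 200 copies, 7 were called higher and 1 lower, with a median of 0.53. The replication clamp Pcna had 747 and 810 copies, the helicase subunit Mcm6 640 and 733, and Uhrf1, which keeps DNA methylation at the fork, 445 and 592. Past the filter, Rpa2, Rfc1 and Rrm2 were furthest apart. Rpa2, a subunit of the single-strand binding complex, had 157 and 53 copies. The clamp loader Rfc1 had 89 and 161, and the reductase subunit Rrm2 had 101 and 174. The 11 condensin and cohesin genes past the filter had a median log2 ratio of 0.22, with 2 (18.2%) called higher and 1 (9.09%) lower. Of the 4 under 200 copies, 3 were called higher. The cohesin subunits Rad21 (709 and 627 copies) and Smc1a (389 and 529) and the condensin subunit Ncaph2 (597 and 628) had the most tags, while the condensin genes Smc4 (69 and 150) and Ncapd2 (183 and 314) were called higher and the securin Pttg1 (206 and 107) lower.

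The remaining APC/C subunits and adaptors past the filter had a median log2 ratio of 0.08, with 1 of 7 (14.3%) called higher. That was Anapc4, with 96 copies in Dox+ and 144 in Dox-, and none was called lower. Of the 2 under 200 copies, 1 was called higher. Anapc5, Anapc11 and Anapc1 had the most tags, with 2314 and 2868, 736 and 762, and 698 and 714 copies. The 17 genes past the filter of a list of other cyclins, CDKs and related genes, many known from transcription, had a median log2 ratio of 0.01. Of these, 4 (23.5%) were called higher and none lower. Of the 4 under 200 copies, 1 was called higher, the CDK inhibitor Cdkn1a. Ccni had 2925 and 2617 copies, Ccnk 315 and 429 and Ccng1 301 and 330, whereas the splicing cyclins Ccnl1 (101 and 226) and Ccnl2 (209 and 366) and the CDK-activating kinase Cdk7 (98 and 157) were called higher.

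Among the transcription regulators upstream of the cycle, 3 of 6 past the filter were called higher and 1 lower. Of the 15 under 200 copies, 4 were called higher (Mybl2, Foxm1, Rb1 and E2f8), 2 lower (Lin52 and Lin37) and 9 neither. Mycn had 14 copies in Dox+ and 299 in Dox-, a ratio of 21.9 (12.8 to 40.5), whereas Myc had 495 and 398. E2f4 (274 and 405 copies) and E2f6 (241 and 371) were called higher and E2f5 (234 and 129) lower.

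**Figure D4:**
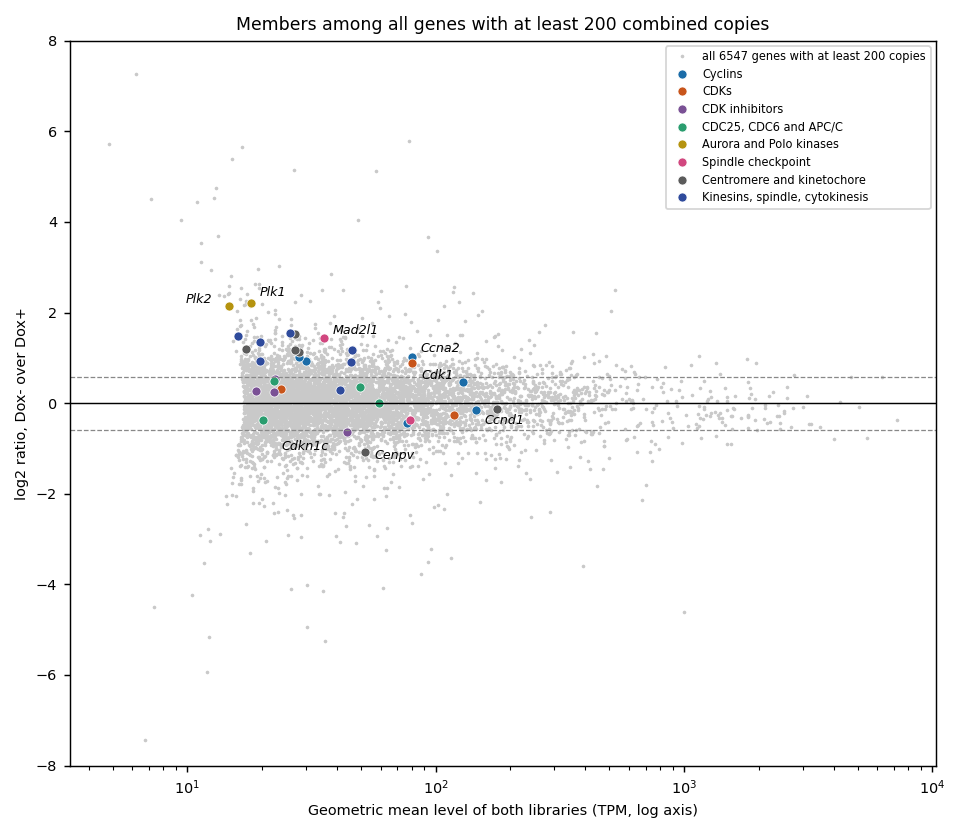
Log2 ratio (Dox- over Dox+) against the geometric mean level (TPM, log axis) of all 6547 genes with at least 200 combined copies (grey) and of the 34 members among them (coloured by role). Dashed lines mark 1.5-fold, a library with under 3 copies is drawn at 3 copies, and 17 members lie above the upper line and 2 below the lower one.

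On NCBIM37, 15 members have an exon that overlaps an exon of a gene on the opposite strand, among them Ccna2, Ccnd1, Ccnd3, Cdk4 and Cdc20, and 2 (Cenpb and Top2a) one on their own strand. The study collected sense and antisense tags, and how the deposited counts keep them apart was not given in the sources used here, so tags in such exons are uncertain.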

How the data were processed

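Total RNA of 3 pooled uteri per group was sequenced as 1 Dox+ and 1 Dox- library. The authors kept clean tags, matched them to mm9 transcripts, annotated the unambiguous tags and deposited counts per gene. The deposited TPM is the copy number per 1000000 clean tags. CASAVA is named in the submitters' processing notes, and the aligner is not given in the sources used here. The labels mention mRNA fragmentation where the methods describe tag profiling. The copies were read as tag counts. The deposited table also holds ratios, log2 ratios, p-values and FDR that the authors computed between the libraries from these values, and none of them was used.

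Clean tags per library (5985925 and 5844313) were recovered from copies over TPM. The ratio of a gene was its share of clean tags in Dox- over that in Dox+, with an exact Clopper-Pearson 95% interval from the split of its copies. Copies of 3 or fewer were set to 3, and such ratios are against that floor. All genes were treated alike and the members read from that table. The members, the lists and the rules were chosen with earlier results of these data known. The text names each member with at least 200 combined copies. Of the members under 200 it names those with a ratio of at least 2 and an interval that left out 1, and the one with the most copies of each role. Of each other list, among genes with at least 200 copies, it names the 3 with the most copies and the 3 called with the largest ratio either way. Other members and genes named were chosen after their values were seen. No test between conditions was possible. The alternatives were copy filters of 100 and 50 and none, table sums, TMM and median-ratio scaling, a fold of 2, an absolute log2 ratio above 0.5, the Audic-Claverie test, edgeR's exact test at an assumed spread (CV) of 0.1, 0.2 or 0.4, a pseudocount of 1, and the mean for the median. The ratio and interval steps were tested on simulated data. Positions are from GENCODE on NCBIM37 and promoters from RefSeq (GRCm38.p6). The software was R 4.3.3 (edgeR 4.0.16, and DESeq2 1.42.0 for size factors alone) and Python 3.11.15 (scipy 1.17.1, pandas 2.3.3, numpy 2.4.6, matplotlib 3.10.9).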

Additional observations from a re-analysis of the deposited data

How the results depend on the processing

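No paired analysis was possible because each group has 1 library. The 17 members called higher and 2 called lower were again 17 and 2 under scaling to table sums, TMM, median-ratio scaling, the Audic-Claverie test at an FDR below 0.05 and an assumed coefficient of variation of 0.1. Of all genes past the filter, table sums called 16.8% higher and 13.7% lower, TMM 14.1% and 15.6%, and median-ratio scaling 13.8% and 15.9%. With the assumed 0.1, 864 and 851 of these 6547 genes were called. For the Audic-Claverie test, the filters of 100 and 50, the fold of 2 and the log2 cut, no such share was computed. The number called higher was 29 with a filter of 100 copies, 36 with 50 and 40 with none, where more members enter, 18 (and 2 lower) at an absolute log2 ratio above 0.5, and 13 at a fold of 2. The number called lower was 3 without a filter, with Ccnb3 added, and 1 at a fold of 2, where Cdkn1c was lost. With an assumed coefficient of variation between pooled libraries of 0.2, edgeR's exact test with Benjamini-Hochberg adjustment called 6 higher (Anln, Cenpn, Ect2, Mad2l1, Plk1 and Plk2) and 0 lower. Past the filter it called 147 of all 6547 genes higher and 174 lower at the same fold. Of the 6, all but Mad2l1 had fewer than 100 copies in Dox+ and passed the filter only through Dox-. At an unadjusted p under 0.05 and without a fold, it called 17 members higher and 1 lower. With 0.4 it called 0 members higher and 0 lower, beside 16 and 17 of all genes past the filter, and 2 and 0 members unadjusted. Each library pools 3 uteri, so this spread is not the one between animals. The true spread is unknown. The median log2 ratio of the members lay between 0.64 and 0.91 under its alternatives. Of 280 alternative log2 ratios of the 70 members, 277 moved by less than the distance from the middle to the end of their interval on the log2 scale (1 for a member without a tag in 1 library), 3 moved further (Cdkn2a to 3.62, Cdkn2b to 3.49 and Ccnb3 to -2.77 with a pseudocount of 1) and 0 reversed. The median log2 ratio of all genes was 0.03 with clean tags, 0.07 with table sums, 0.01 with TMM and 0.00 with median-ratio scaling. Depth limits the members under about 100 copies, whose intervals span 2-fold or more. It also limits some with more copies, such as Kif15 (147 copies, 2.66 to 6.18), Aurkb (188, 2.51 to 5.15) and Plk2 (223, 3.14 to 6.33).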
